A study of Mus musculus with 12 samples.

Results

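The genes described here are 10 markers of striatal interneurons: Chat, Slc5a7, Slc18a3, Pvalb, Sst, Npy, Nos1, Th, Calb2 and Lhx6. They were taken by symbol from an RNA-seq table of 18208 genes. By gene name and Ensembl identifier they were taken from peak lists and position counts of RNA fragments that came down with hnRNP H. All 10 were in the RNA-seq table, and 34 of the 147438 counted positions belonged to them. A counted position is not by itself an established binding site.

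The study cross-linked the RNA-binding protein hnRNP H to RNA in mouse striatum and sequenced the RNA fragments that came down with it (CLIP-seq), and sequenced total RNA from a portion of the same tissue set aside before cross-linking (RNA-seq). All mice analysed were wild-type C57BL/6J animals from matings of C57BL/6J females with males heterozygous for a mutation of Hnrnph1, the gene of hnRNP H, and were 50 to 100 days old. Every mouse had saline on days 1 and 2. On day 3 the saline group had saline again and the other group had methamphetamine, a psychostimulant that releases dopamine, at 2 mg/kg into the abdomen, and striata were taken 30 min later. Each library came from a pool of 4 mice, 2 females and 2 males, with 3 pools per treatment, so the spread between libraries is the spread between pools and not between single mice. The design asks whether transcript levels and hnRNP H binding differ between the treatments.

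Most striatal neurons are projection neurons; interneurons are a small minority whose axons stay within the striatum. Cholinergic interneurons make acetylcholine, and the GABAergic interneurons include fast-spiking cells with the calcium buffer parvalbumin, cells that share somatostatin, neuropeptide Y and neuronal nitric oxide synthase, cells with calretinin, and sparse cells with tyrosine hydroxylase. hnRNP H belongs to a family of nuclear proteins that bind runs of G in RNA and take part in splicing and in the choice of the 3′ end.

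The RNA-seq libraries held 3935160 to 5091839 whole reads each, recovered from the deposited log2 CPM values (CPM, reads scaled to a library of a fixed size), and the CLIP libraries 423057 to 1635338 reads in counted positions. The labelled tissue carried its markers: the 12 genes of the striatal projection neuron list summed to 7748 to 10840 CPM in the saline libraries and 6755 to 9450 CPM in the methamphetamine libraries. The first principal component of the RNA-seq data split the pools across treatments. Set A, as it is called below, comprised 2 saline pools (replicates 1 and 3) with methamphetamine replicate 2; set B comprised saline replicate 2 with the 2 remaining methamphetamine pools (replicates 1 and 3). The first component of the CLIP data divided the pools in the same way. In CLIP, however, set B had 423057 to 909091 reads in counted positions and set A 979878 to 1635338. Depth and set cannot be told apart in the CLIP split. Of the 18208 genes, 7066 (38.8%) had ranges that did not overlap between these sets, which were defined from the data and are not groups of the study. Set B was the higher for 6 of 12 cortical excitatory neuron genes and the lower for 9 of 12 projection neuron genes, without overlap. Differences within each set are given beside the treatment comparison; each rests on 1 library against 2 and has no error. The part of the sets in any result was not tested.

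The sequences that bear on hnRNP H binding of these genes are short. Of the 34 positions, 8 lay in exons, and 6 of those fell within an exon of an annotated transcript whose sequence was at hand (GENCODE M21 on GRCm38, also called mm10). Windows of 30 bases from 3 of them are shown 5′ to 3′ on the strand of the gene, with runs of at least 3 G in capitals. They are the 3′ UTR (untranslated region) of Lhx6 at chr2:36082089-36082118 (minus strand), an exon of a noncoding Chat transcript at chr14:32452208-32452237 (minus strand), and the 3′ UTR of Nos1 at chr5:117958480-117958509 (plus strand).
Lhx6: acacacacacacGGGGGaacacacacaaat
Chat: ctcagtggtatcgccGGGatgatGGGttcc
Nos1: gtccgtcatGGGGtcaggttacacccagag
The Lhx6 window comes from the only exonic peak of these genes in the authors' peak lists, and its run of 5 G stands alone in a stretch of CA repeats: 10.0% of the bases of the 100-nt position were G. The other 3 exonic positions with sequence, 1 in the 3′ UTR of Sst and 2 in the 3′ UTR of Nos1, had no run of 3 or more G. Both of these Nos1 positions had more CLIP reads (5 and 18) than the Nos1 position with the run of 4 G shown above (2). For comparison, the motif GGG on the transcript strand, overlapping matches counted once per run, was present in 82.3% of 2367 listed saline peaks and 81.2% of 2916 listed methamphetamine peaks that lay within an exon. A match is a run of letters and was not tested as a binding site.

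The interneuron genes spanned a wide range of RNA levels. The values compared between genes are log2 CPM per kb of the longest transcript, as the mean ± SD over 6 libraries. Sst, which encodes the peptide somatostatin, led at 8.83 ± 0.35, a linear level of 468 ± 124 CPM per kb, higher than 99.6% of 17927 genes with a length. Npy, the gene of neuropeptide Y, followed at 5.71 ± 0.54, and Pvalb, the gene of parvalbumin, at 5.25 ± 1.44.

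Lhx6, a transcription factor of interneurons born in the medial ganglionic eminence, and Nos1, neuronal nitric oxide synthase, were at the same level per kb, 3.40 ± 0.23 and 3.39 ± 0.28. The cholinergic genes were lower. Slc18a3, the transporter that loads acetylcholine into vesicles, was at 2.59 ± 0.27 and Chat, which synthesises acetylcholine, at 2.39 ± 0.42. Slc5a7, the choline transporter that supplies Chat, was the lowest of the 10 at 0.28 ± 0.69. Between them stood Calb2, which encodes calretinin, at 1.89 ± 0.63 and Th, tyrosine hydroxylase, the rate-limiting enzyme of dopamine synthesis, at 1.49 ± 0.63. In this order, neighbours had ranges that did not overlap at 2 steps, from Sst to Npy and from Pvalb to Lhx6; at the other steps the ranges overlapped. Within each library, Nos1 was above Slc18a3 in 6 of 6 and Th above Slc5a7 in 6 of 6, whereas Npy was above Pvalb in 4 of 6, Lhx6 above Nos1 in 3 of 6 and Slc18a3 above Chat in 3 of 6. Read against the union of all exons, Nos1 moved ahead of Lhx6 and the rest of the order was the same.

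**Figure D1:**
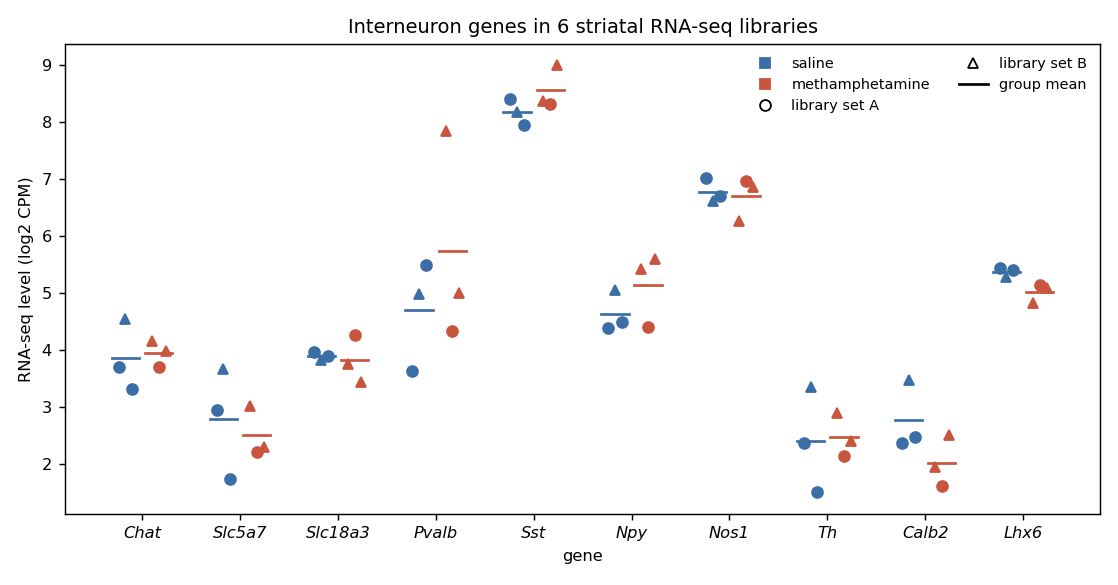
RNA-seq level in log2 CPM (vertical axis, not divided by length) of the 10 interneuron genes in each of 6 libraries, saline in blue and methamphetamine in red, with circles for set A, triangles for set B and bars for the group means. Pvalb in methamphetamine replicate 1 (7.84) stands far above the other 5 libraries, and only for Lhx6 do all red points lie below all blue points.

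No interneuron gene passed the test of methamphetamine against saline across all genes. By limma, the Benjamini-Hochberg adjusted p was under 0.05 for 0 of 18208 genes (0%), and all 10 interneuron genes had an adjusted p of 0.9998. At an unadjusted p under 0.05, limma called 276 genes (1.52%), none of them among the 10; edgeR's quasi-likelihood test and DESeq2 on the recovered reads called 109 and 103 genes unadjusted and 0 adjusted. Of the 10 genes 5 had a positive and 5 a negative change, with a median of -0.0021 on the log2 scale against 0.0020 for all genes. Because whole striatum was sequenced, fewer cells of a type and less RNA per cell cannot be told apart in any of these levels.

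The 3 cholinergic genes showed no common direction. The reads of Chat were 46, 110 and 40 in the saline pools and 89, 57 and 82 in the methamphetamine pools, each in the order of replicates 1 to 3 as throughout, which is 3.71, 4.54 and 3.33 against 4.16, 3.72 and 3.99 log2 CPM. Saline replicate 2 was the highest and saline replicate 3 the lowest of the 6 libraries, so the methamphetamine values lay inside the saline range. The limma change was 0.10 ± 0.32 (SE; 95% interval -0.63 to 0.82).

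Slc5a7 had few reads, 27, 60 and 13 in saline and 40, 20 and 25 in methamphetamine, or 2.95, 3.68 and 1.74 against 3.02, 2.23 and 2.30 log2 CPM. Here too the saline libraries were both the highest and the lowest, and the change of -0.28 ± 0.49 (95% interval -1.39 to 0.84) was smaller than the spread between saline pools (SD 0.98). Slc18a3 had 55, 67 and 60 reads in saline and 67, 84 and 56 in methamphetamine, or 3.96, 3.83 and 3.91 against 3.75, 4.27 and 3.45 log2 CPM. Its saline libraries had an SD of 0.07, and the methamphetamine libraries fell on both sides of them, for a change of -0.08 ± 0.26 (95% interval -0.66 to 0.50).

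Chat and Slc18a3 are neighbours in the genome: the whole of Slc18a3 (chr14:32462438-32464850) lies within the Chat gene (chr14:32408203-32465989) on the same strand, and the antisense gene Gm2990 overlaps the 5′ end of Chat. Whether the counting used strand is not stated, so reads of these overlapping genes could not be separated with certainty. Their libraries ranked differently: Chat was higher in set B than in set A in every library, and Slc18a3 was lower in set B in every library. Within set A the treatment difference was 0.20 for Chat and 0.34 for Slc18a3, and within set B it was -0.47 and -0.23. A further 10 genes of cholinergic neurons, among them the acetylcholine-degrading enzyme Ache and the transcription factors Lhx8, Isl1 and Gbx2, were all measured and gave 4 positive and 6 negative changes with a median of -0.13. None of the 10 had an unadjusted p under 0.05 by limma. Every methamphetamine library was above every saline library for Chrm2 (change 0.52 ± 0.29). Every one was below for Gbx2 (-0.64 ± 0.40), which had 8 to 13 reads per library. Of all genes, 6.01% had no overlap in either direction. Their summed level was 224 to 260 CPM in saline and 226 to 246 CPM in methamphetamine.

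Among the GABAergic genes, Pvalb varied most between libraries. It had 44, 150 and 180 reads in saline and 1150, 88 and 166 reads in methamphetamine, or 3.64, 4.99 and 5.48 against 7.84, 4.34 and 5.01 log2 CPM. Methamphetamine replicate 1 was 5.14-fold above the next library and 18.4-fold above the lowest, on the linear CPM scale; the other 2 methamphetamine libraries lay inside the saline range. The change of 1.02 ± 0.82 (95% interval -0.82 to 2.87) rested on that library: without methamphetamine replicate 1 it was -0.04. The range of Pvalb over the 6 libraries was larger than that of 99.9% of 11667 genes with a mean of at least 20 reads. The step from its highest to its next library, 2.36 on the log2 scale, was matched or exceeded by 15 of those genes counting Pvalb, 3 of them in methamphetamine replicate 1.

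The other genes that were high in methamphetamine replicate 1 were looked at after the values had been seen. They included Kcng4, a potassium channel subunit, with 19, 33 and 29 reads in saline and 207, 24 and 26 in methamphetamine, and Prkcd, a protein kinase abundant in thalamus, with 31, 66 and 34 against 343, 29 and 66 reads. Frem3 had a larger step than either, with 80 reads in methamphetamine replicate 1 and 6 to 11 elsewhere. Lists of 8 genes each for globus pallidus, which borders the striatum and holds many parvalbumin neurons, and for thalamus were drawn up at that point. Kcng4, Spp1 and Vamp1 of the pallidal list and Prkcd and Ramp3 of the thalamic list had large steps in methamphetamine replicate 1 themselves. The counts and sums of these lists were therefore partly fixed by the choice of genes. Of the pallidal list (Spp1, Vamp1, Kcng4, Etv1, Nefh, Kcnc1, Syt2 and Hapln4), 7 of 8 were highest in methamphetamine replicate 1. Its summed level there was 906 CPM, against 404 to 553 CPM in saline, 415 CPM in methamphetamine replicate 2 and 503 CPM in methamphetamine replicate 3. An earlier list of 8 genes for basal forebrain, septum and pallidum had 2 of 8 highest in methamphetamine replicate 1. The sum of that list was 184 CPM there, against 172 to 284 CPM in saline. It was 248 CPM in methamphetamine replicate 2 and 131 CPM in methamphetamine replicate 3.

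Of the thalamic list (Prkcd, Ramp3, Tcf7l2, Lef1, Rora, Slc17a6, Ntng1 and Synpo2), 5 of 8 were highest in methamphetamine replicate 1, and the sum was 229 CPM there against 84.9 to 118 CPM in the other 5 libraries. Spp1 itself was at 2, 27 and 4 reads in saline and 119, 7 and 14 in methamphetamine. Of the 25 GABAergic interneuron genes described below, 5 were highest in methamphetamine replicate 1 (Gad1, Kcnc1, Kcnc2, Cox6a2 and Chodl), while Lhx6 was lowest there. Kcnc1, a potassium channel subunit of fast-spiking neurons, stands in the pallidal list and in the list of GABAergic interneuron genes below. The part of pallidal or thalamic tissue in the Pvalb value of that library was not tested.

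**Figure D2:**
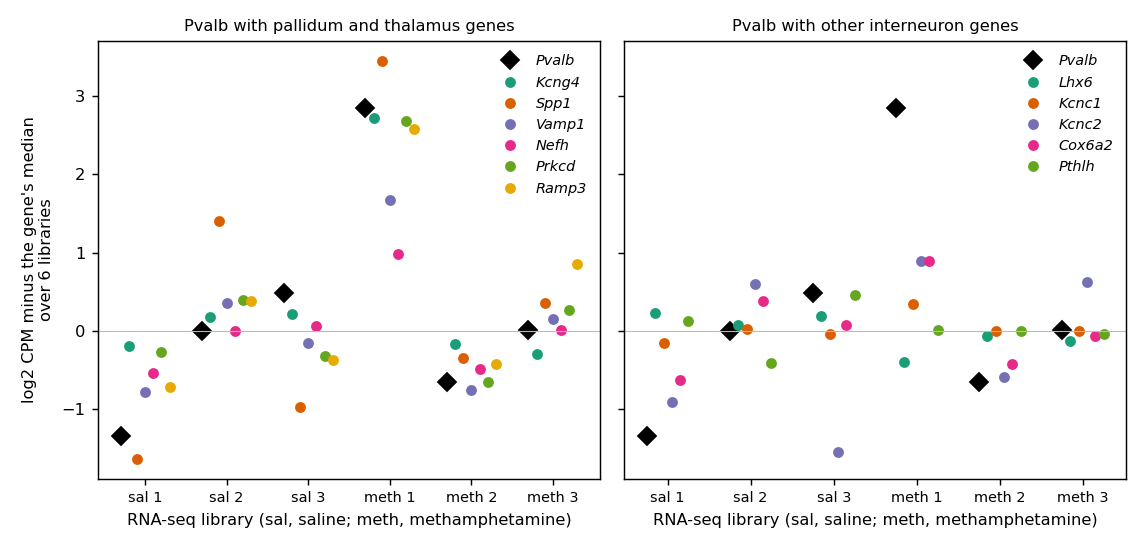
Level of Pvalb (black diamonds) in each RNA-seq library beside pallidal and thalamic genes (left) and other interneuron genes (right), as log2 CPM minus the median of the same gene over 6 libraries. In methamphetamine replicate 1, Pvalb, Kcng4, Spp1, Prkcd and Ramp3 stand more than 2 above their medians. Kcnc1, Kcnc2 and Cox6a2 are also at their highest there, and Lhx6 is below its median. These 3 and Pthlh were picked from a list of 25 GABAergic interneuron genes, of which 5 were highest in that library. The pallidal and thalamic genes drawn on the left were picked from their lists and are all highest in that library. Etv1, Ntng1, Tcf7l2 and Synpo2 of the same lists were highest in a saline library and are not drawn.

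Sst, Npy and Nos1 mark the same class of interneuron; the first 2 had positive changes and Nos1 a negative one, none of them past the threshold. Sst had 1198, 1370 and 991 reads in saline and 1645, 1381 and 2631 in methamphetamine, or 8.40, 8.18 and 7.94 against 8.36, 8.30 and 8.99 log2 CPM. Methamphetamine replicate 3 was the highest and the other 2 methamphetamine libraries lay within the saline range, for a change of 0.38 ± 0.22 (95% interval -0.13 to 0.88). Npy had 74, 156 and 90 reads in saline and 213, 92 and 249 in methamphetamine, or 4.39, 5.05 and 4.49 against 5.41, 4.40 and 5.59 log2 CPM.

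For Npy, methamphetamine replicates 1 and 3 were the highest and replicate 2 was near the bottom, for a change of 0.49 ± 0.32 (95% interval -0.24 to 1.23). All 3 libraries of set B exceeded all 3 of set A for Npy; the treatment difference was -0.04 within set A and 0.45 within set B. Nos1 had 459, 464 and 417 reads in saline and 384, 546 and 598 in methamphetamine, or 7.01, 6.62 and 6.69 against 6.26, 6.96 and 6.85 log2 CPM. Its groups overlapped, with both the lowest and the second highest library in methamphetamine, and its change was -0.08 ± 0.21 (95% interval -0.57 to 0.40). Without methamphetamine replicate 3, the highest library of both, the change was 0.16 for Sst and 0.27 for Npy. In that library the 12 cortical excitatory neuron genes summed to 1398 CPM, against 332 to 841 CPM in the other 5; 11 of the 12 had a positive change, none was at 0 in any library, and their part in the Sst and Npy values was not tested. An antisense gene, Gm26995, overlaps Nos1, and its reads could not be separated with certainty from those of Nos1.

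Lhx6 alone among the 10 had groups that did not overlap. It had 154, 184 and 171 reads in saline and 141, 155 and 176 in methamphetamine, or 5.44, 5.28 and 5.41 against 4.82, 5.15 and 5.09 log2 CPM. Every methamphetamine library was below every saline library, and the change was -0.36 ± 0.17 (95% interval -0.75 to 0.03, unadjusted p = 0.0662 and adjusted p = 0.9998 by limma). Of all genes, 3.58% had every methamphetamine library below every saline library, 2.44% had every one above, and 6.01% had no overlap in either direction, so 1 of 10 genes is near the background. The difference was -0.27 within set A and -0.33 within set B. Beside it, 12 of 12 striatal projection neuron genes had a negative change, with a median of -0.23, 0 of 12 had an unadjusted p under 0.05, and 3 of 12 had no overlap. Their part in the Lhx6 value was not tested.

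Calb2 and Th had the fewest RNA-seq reads of the 10 genes, 153 and 160 over 6 libraries. Calb2 had 18, 52 and 22 reads in saline and 19, 13 and 29 in methamphetamine, or 2.38, 3.47 and 2.48 against 1.96, 1.62 and 2.51 log2 CPM. Saline replicate 2 was the highest, the groups overlapped through methamphetamine replicate 3, and the change of -0.74 ± 0.41 (95% interval -1.67 to 0.18) was negative within set A (-0.80) and within set B (-1.24). Th had 18, 48 and 11 reads in saline and 37, 19 and 27 in methamphetamine, or 2.38, 3.36 and 1.51 against 2.91, 2.16 and 2.41 log2 CPM. As with Chat, the saline libraries held both the highest and the lowest value of Th, and the change was 0.07 ± 0.48 (95% interval -1.01 to 1.16).

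Th is also the marker of midbrain dopamine neurons, whose axons fill the striatum. The dopamine transporter gene Slc6a3, which defines those neurons, had 1 to 4 reads in each library. The 8 genes of the dopamine neuron list summed to 53.4 to 92.7 CPM in saline and 78.3 to 102 CPM in methamphetamine, with 4 positive and 4 negative changes. Nr4a2 (67 to 362 reads, change 0.87 ± 0.41) and Aldh1a1 (45 to 176 reads, 0.12 ± 0.42) had the most reads of the list in every library. The sum therefore mainly reflects these. Of the 8, only Ddc had groups without overlap, with every methamphetamine library below every saline library (-0.57 ± 0.34, unadjusted p = 0.13 by limma). This order was found for 3.58% of all genes, and 6.01% had no overlap in either direction. The part of dopamine neuron genes in the Th values was not tested.

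**Figure D3:**
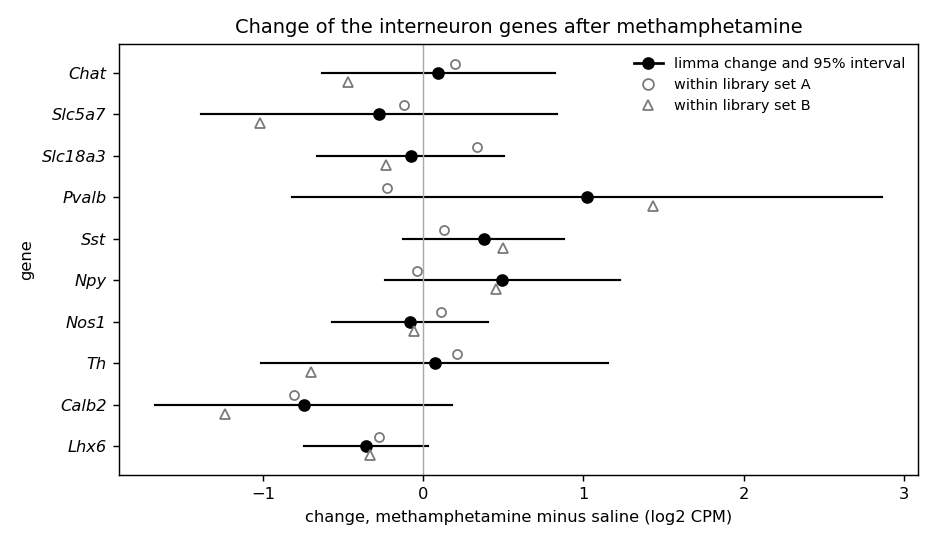
Change of each interneuron gene after methamphetamine in log2 CPM (horizontal axis), with the limma estimate and 95% interval in black and the difference within library set A (circles) and set B (triangles) in grey. All 10 intervals include 0, and for 6 genes (Chat, Slc18a3, Pvalb, Npy, Nos1 and Th) the differences within the sets have opposite signs.

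A wider list of 25 genes of GABAergic interneurons, from the GABA-synthesising enzymes Gad1 and Gad2 and the vesicular transporter Slc32a1 to the developmental regulators Nkx2-1, Sox6 and Satb1 and the peptides Cck, Vip and Cort, was read in the same way. All 25 were measured, 13 had a positive and 12 a negative change, and the median was 0.04. None had an unadjusted p under 0.05 by limma, and none had groups without overlap. Their sum was 2376 to 2487 CPM in saline and 2263 to 2749 CPM in methamphetamine, the highest in methamphetamine replicate 1, where Gad1 had 4801 reads against 1782 to 2969 elsewhere. Projection neurons also use GABA, so Gad1, Gad2 and Slc32a1 are not specific to interneurons. By library set, 9 of the 25 were higher in set B without overlap and 3 were lower, where 38.8% of all genes had no overlap between the sets in either direction.

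For each interneuron gene the 3 genes with the most similar profile over the 6 libraries were taken among 11666 genes with a mean of at least 20 reads, by Pearson's r of log2 CPM. Each r is the highest of that many candidates over 6 libraries that share the split into sets A and B, and is given as a description. The nearest genes to Chat were Acvr1b (r = 0.997), Emc7 and Fcer1g, to Slc5a7 Mtch1 (r = 0.993), Trnau1ap and Slc3a1, and to Slc18a3 Gm12500 (r = 0.984), Robo3 and Smad6. Pvalb was nearest to Lamtor4 (r = 0.990), Nefh (r = 0.985), the heavy neurofilament subunit, and Rsrc1. Sst was nearest to Dzip1 (r = 0.980), Sema4c and Gmppa, Npy to Sparcl1 (r = 0.992), Entr1 and Faah, and Nos1 to Dcaf15 (r = 0.987), Myo5b and Nova2. Th was nearest to Tm9sf3, Ndufb4 (r = 0.996) and Sub1, Calb2 to Parg (r = 0.984), Togaram1 and Eya1, and Lhx6 to Rap2b (r = 0.982), Fen1 and Fkbp1a. No interneuron gene was among the 3 nearest of another, which with so many candidates says little about pairs of these genes. Between them, r over the 6 libraries ran from -0.951 (Pvalb and Nos1) to 0.977 (Chat and Th).

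CLIP-seq covered the interneuron genes unevenly. Counted positions, each 100 nt long, were present in 8 of the 10 genes, against 72.6% of all genes, and none belonged to Calb2 or Slc18a3. Of the 34 positions, 26 lay in introns and held 692 of 788 reads, 6 lay in 3′ UTRs with 76 reads, 1 in coding sequence with 9 and 1 in a noncoding exon with 11; 2 positions had 0 reads in all 6 libraries. In descending order, the reads over 6 libraries were 438 in Th, 149 in Nos1, 77 in Lhx6, 70 in Chat, 32 in Slc5a7, 15 in Sst, 4 in Npy and 3 in Pvalb. None of the 5 Chat positions fell within Slc18a3.

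The order of CLIP reads was unlike the order of RNA. Th, with 160 RNA-seq reads over the 6 libraries, had 274 CLIP reads per 100 RNA-seq reads. Slc5a7 had 17.3 and Chat 16.5 per 100, close to the ratio of all reads of all genes (16.1 per 100). Lhx6 had 7.85 and Nos1 5.19 per 100, beside a median of 5.72 per 100 over genes. Sst, with 9216 RNA-seq reads, had 0.163 CLIP reads per 100, Pvalb had 0.169 and Npy 0.458. Of 436 genes with at least as many RNA-seq reads as Sst, the median CLIP total was 592.5 reads and 32 had 15 reads or fewer. Of 7251 genes with at most as many RNA-seq reads as Th, the median was 0 and 267 had 438 reads or more.

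Among these 10 genes, CLIP totals had a larger rank correlation with gene length than with RNA-seq reads, given as a description without an error. Spearman's rho between CLIP reads and the length of the gene was 0.596 and between CLIP reads and RNA-seq reads 0.158 (n = 10 genes, which share the same libraries); over 17927 genes the values were 0.508 and 0.629. Sst spans 1.39 kb, Npy 6.80 kb and Nos1 178 kb. Calb2, with no position, spans 30.7 kb and Lhx6 23.5 kb. Sst had the fewest G runs of the 10 in its longest transcript, 6.93 runs of at least 3 G per kb. The median over genes was 12.2 per kb, and Slc18a3, with no position, had 16.2 and Pvalb 15.3 per kb. These spliced transcripts lack the introns, which held 692 of the 788 CLIP reads of the 10 genes. The part of gene length or of G runs in the CLIP totals was not tested.

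**Figure D4:**
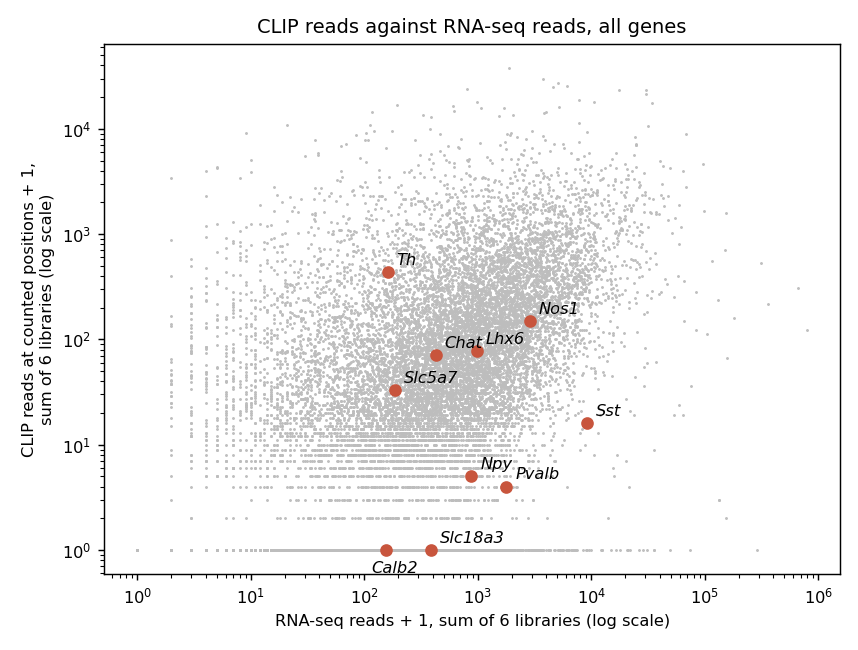
CLIP reads at counted positions against RNA-seq reads, each plus 1 and summed over 6 libraries on log axes, with all genes in grey and the interneuron genes in red. Th (438 CLIP reads, 160 RNA-seq reads) lies toward the upper part of the genes at its RNA level, with other genes above it, and Sst (15 and 9216 reads) at the lower right.

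Th had 2 intronic positions on its own minus strand. The position with most reads, chr7:142912353-142912452, had 76, 27 and 126 reads in saline and 35, 73 and 32 in methamphetamine, 84.3% of the reads of Th. It lies 12.3 kb upstream of the start of Th-201, in an intron of the longer transcripts Th-202 and Th-206 only, and neither of the authors' peak lists holds it. Its share of the Th reads was 83.4% ± 3.61 in saline and 82.2% ± 5.95 in methamphetamine (SD, n = 3), from 78.0% (95% Wilson interval 63.3 to 88.0) in methamphetamine replicate 3 to 89.0% (80.4 to 94.1) in methamphetamine replicate 2. The interval covers counting error only. In 6 of 6 libraries most CLIP reads of Th came from RNA outside the span of Th-201.

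The second Th position, chr7:142898853-142898952, was in both peak lists. It lies in an intron 1062 bp from the start of Th-201, and had 12, 7 and 23 reads in saline and 9, 9 and 9 in methamphetamine. The authors' signal value, whose scale is not stated, was 1.72 with a q-value of 0.02199 in the methamphetamine list and 1.56 with 0.03551 in the saline list. Counting this position alone, Th had 43.1 CLIP reads per 100 RNA-seq reads, which was still the highest of the 10 genes.

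Nos1 had the most positions, 12 over 178 kb, of which 9 lay in introns and 3 in the 3′ UTR. Its listed peak was the intronic position chr5:117849933-117850032 (plus strand), with 10, 5 and 20 reads in saline and 7, 9 and 4 in methamphetamine. The signal value was 1.59 (q-value 2.286e-08) in the saline list and 1.23 (q-value 0.02774) in the methamphetamine list. The remaining 11 positions held 2 to 18 reads each, and the highest of them was a 3′ UTR position without a G run. The methamphetamine list also holds a peak annotated to Nos1 on the opposite strand, chr5:117936626-117936725 (minus strand), which carries the identifier of the antisense gene Gm26995 (signal value 2.61, q-value 0.01289). It is not in the count table and was not counted as a peak of Nos1.

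Lhx6 had 7 positions, and the 3′ UTR peak shown above with its run of 5 G held 41 of 77 reads. That peak, chr2:36082054-36082153 (minus strand), had 7, 8 and 4 reads in saline and 14, 5 and 3 in methamphetamine. Relative to the CLIP depth of each library this is 6.65, 18.9 and 2.45 against 15.4, 5.10 and 5.04 CPM, so the saline libraries held both the highest and the lowest value. Its signal value was 1.71 (q-value 2.278e-06) in the methamphetamine list and 1.61 (q-value 1.807e-05) in the saline list.

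Chat had 5 positions. Its listed peak, in the saline list only, was the intronic position chr14:32412304-32412403 (minus strand), 53.6 kb from the start of the gene, with 15, 3 and 16 reads in saline and 1, 8 and 5 in methamphetamine (signal value 1.11, q-value 0.001521). Presence in 1 list and not in the other is no test of a difference, and the reads overlapped between the treatments. Across the 10 genes, 4 had a listed peak on their own strand (38.7% of all genes had a peak in either list) and 3 of them, Nos1, Th and Lhx6, were in both lists (19.2% of all genes).

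The other genes had no listed peak. The 3 positions of Slc5a7 lay within 500 bases of an intron, and the highest, chr17:54297591-54297690, had 1, 0 and 4 reads in saline and 3, 4 and 3 in methamphetamine. For Sst the position with most reads, in coding sequence at chr16:23889874-23889973, had 1, 0 and 5 reads in saline and 3, 0 and 0 in methamphetamine. Npy had 0, 1 and 1 reads in saline and 2, 0 and 0 in methamphetamine at a 3′ UTR position, chr6:49829411-49829510. Pvalb had 1, 0 and 0 reads in saline and 2, 0 and 0 in methamphetamine at an intronic position, chr15:78195315-78195414. At these counts no difference between the treatments could be detected.

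**Figure D5:**
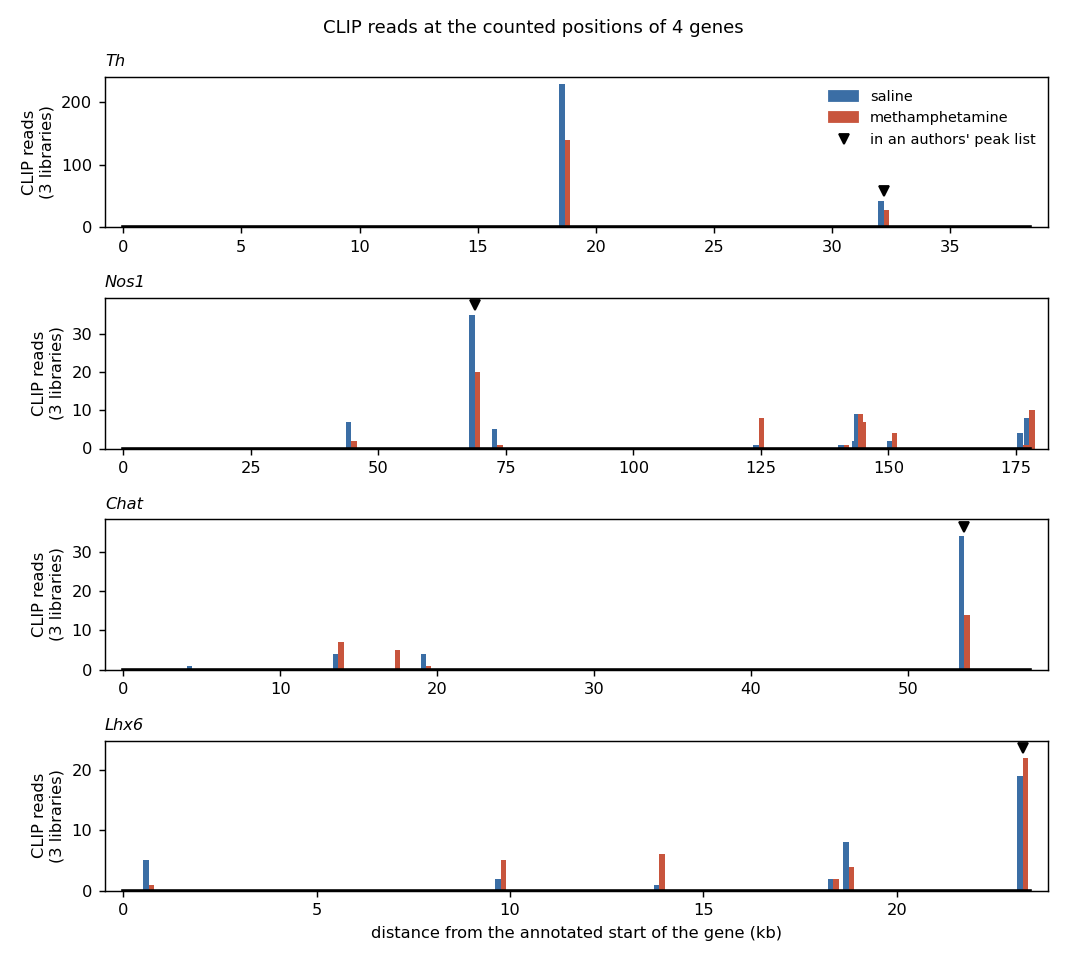
CLIP reads at each counted position of Th, Nos1, Chat and Lhx6, summed over the 3 libraries of each treatment (saline blue, methamphetamine red), against the distance in kb from the annotated start of the gene; triangles mark positions in an authors' peak list. The tallest bars of Th, 229 saline and 140 methamphetamine reads, carry no triangle.

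No interneuron gene passed the test for a treatment difference in hnRNP H binding. Summed per gene, Th had 88, 34 and 149 CLIP reads in saline and 44, 82 and 41 in methamphetamine, which is 83.5, 80.4 and 91.1 against 48.4, 83.7 and 68.9 CPM. Methamphetamine replicates 1 and 3 were below every saline library and replicate 2 was inside the saline range, and edgeR gave a log2 change of -0.36 ± 0.36 (SE; Benjamini-Hochberg adjusted p = 0.892). Nos1 had 24, 8 and 46 reads against 19, 38 and 14, for a change of 0.23 ± 0.45 (adjusted p = 0.937 by edgeR). Lhx6 had 16, 10 and 11 against 16, 16 and 8, for a change of 0.12 ± 0.59 (adjusted p = 0.980 by edgeR). Chat had 19, 4 and 20 against 6, 13 and 8, for a change of -0.30 ± 0.54 (adjusted p = 0.929 by edgeR). In Th, Nos1 and Chat the library with the most CLIP reads was saline replicate 3, which was also the deepest.

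These 4 genes passed the filter on low counts, which 38.6% of all genes did; the other 6 were too sparse to be tested. Over 8171 genes tested with edgeR, 0 had an adjusted p under 0.05 (0%) and 426 an unadjusted p under 0.05 (5.21%), none of the 4 among them; DESeq2 called 0 adjusted and 621 unadjusted. Of single positions, only those of Th passed the filter. The upstream position changed by -0.19 ± 0.33 and the listed one by -0.07 ± 0.53 on the log2 scale (adjusted p = 0.9998 for both by edgeR), where edgeR called 0 of 10358 positions adjusted (0%) and 347 unadjusted (3.35%), and DESeq2 called 1 adjusted and 1937 unadjusted.

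Because RNA and CLIP libraries of a treatment and number came from the same pool, binding was also read relative to RNA, as log2 CLIP CPM minus log2 RNA-seq CPM. Deviations from the group mean in CLIP and in RNA-seq of the same pool were nearly uncorrelated across genes (r from -0.0693 to 0.0341), so the pairing rests on the protocol and not on these values. Th stood at 4.07, 3.16 and 4.97 in saline and 2.80, 4.23 and 3.80 in methamphetamine, with a mean of 3.84 that was above 88.5% of 7033 genes (median 0.16). Chat was near the middle, at 0.56, -0.97 and 0.29 in saline and -1.23, 0.05 and -0.08 in methamphetamine. Lhx6 (mean -1.22) and Nos1 (mean -2.00) lay lower, above 24.7% and 13.6% of genes. Nos1 was the steadiest of the 4 and ran from -2.41 to -1.68 over the 6 pools.

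None of the 4 passed the test between treatments in this measure, and the groups overlapped in all 4 (7.66% of 7033 genes had groups without overlap). The limma changes were -0.46 ± 0.60 for Th (95% interval -1.80 to 0.87), -0.38 ± 0.76 for Chat (-2.06 to 1.30), 0.28 ± 0.52 for Nos1 (-0.88 to 1.43) and 0.57 ± 0.72 for Lhx6 (-1.03 to 2.17), each with an adjusted p of 0.997. Without saline replicate 3 the change was -0.01 for Th and 0.01 for Lhx6, and without saline replicate 2 it was -0.92 and 1.08. Of 7033 genes, limma called 0 adjusted (0%) and 195 unadjusted (2.77%), and an edgeR interaction of assay and treatment called 0 adjusted and 377 unadjusted. The intervals leave room for differences of more than 2-fold in either direction for Chat and Lhx6, so the data do not show that binding was equal.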

How the data were processed

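RNA-seq and CLIP-seq libraries of 3 saline and 3 methamphetamine pools were analysed; mutant samples were not analysed here. The deposited RNA-seq table gives log2 CPM on the voom scale with an offset of 0.5 reads, and 100.0% of its values inverted to whole reads within 0.01 reads. Counts per CLIP position were used as deposited; of 172271 lines, 24597 were repeats and 236 gave a position under another name, which left 147438 positions. The authors' peak lists, 1 per treatment, hold a signal value on an unstated scale (a score), p-values and q-values; per the file headers, no test is named for the latter. The submitters' processing notes name Trimmomatic, UMI-tools, STAR, bedtools, Subread, featureCounts, limma, edgeR and mm10; their roles, parameters and versions, and whether counting used strand, are not given in the sources used here.

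RNA-seq values were tested with limma 3.58.1 (mean-variance trend), CLIP counts per position and summed per gene with the quasi-likelihood test of edgeR 4.0.16 after TMM scaling and filterByExpr, and CLIP relative to RNA with limma, all in R 4.3.3 over the whole table with Benjamini-Hochberg adjustment at 0.05. DESeq2 1.42.0 was an alternative; tables and figures used pandas 2.3.3, scipy 1.17.1 and matplotlib 3.10.9. Each fit was run on simulated data, with no change or with changes larger than any estimated for these genes, and without library sets. Those runs do not gauge how well small changes would be found. All 10 genes were named with every library's value, with the 3 genes most like each, every listed peak, and the top position of genes without one. The genes and the marker lists were chosen with earlier results of these data known, and the pallidal and thalamic lists after the values of Pvalb had been seen. Lengths came from GENCODE M21 (17927 genes, 98.5%). Same-numbered saline and methamphetamine pools did not deviate together (r from -0.721 to -0.244 in RNA-seq), so numbers were not used as pairs across treatments. Other scalings, offsets, filters, tests, a replicate block and each library left out were tried, and the library set was added as a covariate after the data were seen. Columns of other samples numbered 0 in the tables used.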

Additional observations from a re-analysis of the deposited data

How the results depend on the processing

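The count of adjusted calls at 0.05 was 0 in the 4 comparisons (RNA-seq, CLIP positions, CLIP reads per gene, CLIP relative to RNA) in all alternatives except 2 for CLIP positions, DESeq2 with 1 call and edgeR without a count filter with 414 calls (24 of them higher after methamphetamine). Leaving out each library in turn also gave 0, from 0 to 0, in each comparison, though unadjusted RNA-seq calls ran from 192 to 958 (958 without methamphetamine replicate 2 and 928 without saline replicate 2). With a q-value among the lower ones of its list (below the median) required, 2 interneuron genes had a listed peak in place of 4. With the replicate number as a replicate block, the count was 0 in every comparison. For RNA-seq and CLIP relative to RNA the block could not change the estimates, because each number held 1 library of each treatment. In the CLIP count fits, where it could, no direction changed for an interneuron gene. Directions of small changes did reverse, on the log2 scale. For RNA-seq, Chat was -0.00317 with edgeR, -0.012 with DESeq2 and -0.136 with the library set as covariate; Th was -0.107, -0.114 and -0.245; Nos1 was 0.0018 scaled to total reads and 0.0257 with the covariate; Slc18a3 was 0.00538 and 0.0508. With the covariate the CLIP change of Lhx6 was -0.0183. Leaving out single libraries, the RNA-seq change ran from -0.17 to 0.438 for Chat, -0.378 to 0.544 for Th, -0.217 to 0.133 for Nos1, -0.301 to 0.111 for Slc18a3, -0.799 to 0.167 for Slc5a7 and -0.0351 to 1.72 for Pvalb, without a change of sign from -0.983 to -0.397 for Calb2, -0.423 to -0.258 for Lhx6, 0.267 to 0.861 for Npy and 0.16 to 0.503 for Sst. The CLIP change ran from -0.305 to 0.155 for the listed Th position, -0.338 to 0.542 for Lhx6, -0.0788 to 0.383 for Nos1, -0.54 to -0.188 for Th per gene and -0.468 to -0.00819 for Chat, and CLIP relative to RNA from -0.844 to 0.0263 for Chat, -0.917 to -0.011 for Th, 0.00873 to 1.08 for Lhx6 and 0.141 to 0.426 for Nos1. The causes were not tested. Depth limits Th, Calb2 and Slc5a7 in RNA-seq and all but 4 of the genes in CLIP.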
